A study of Mus musculus with 10 samples.

Results

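The 7 genes of the CDK inhibitor family, Cdkn1a, Cdkn1b, Cdkn1c, Cdkn2a, Cdkn2b, Cdkn2c and Cdkn2d, were examined out of 20665 autosomal coding genes, through the Sox4 binding peaks and open chromatin peaks within 100 kb of their bodies. The tissue was mouse cochlea at stage E13.5, from which the protocols describe freeing the epithelium of the duct with enzymes, while the titles of the ATAC samples read whole organ. ATAC-seq, in which a transposase cuts accessible DNA, gave open chromatin in 2 SoxC double knockout (DKO) libraries and 3 wildtype libraries without sorting. Sox4 was mapped in 3 replicates with a guinea pig antibody by CUT&RUN, in which an antibody directs a nuclease to the DNA beside a bound protein. The cells were GFP positive progenitors sorted from p27kip1-GFP mice of wildtype genotype. The labels name neither the deleted SoxC genes nor, for the ATAC libraries, the Cre driver or any reporter, and they do not say how the p27kip1-GFP reporter was built. Cdkn1b encodes p27Kip1, so the gene that marked the sorted cells is itself a family member. The genes were selected on these same Sox4 peaks, so their Sox4 values are given as a description with no test. Positions are 1-based and refer to mm10 (GRCm38). Nothing in the labels says whether replicates came from separate litters, so p-values measure the spread between these libraries.

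CDK inhibitors stop the cell cycle by binding cyclin-dependent kinases. The Cip/Kip members p21 (Cdkn1a), p27Kip1 (Cdkn1b) and p57Kip2 (Cdkn1c) bind cyclin and kinase together, while the INK4 members p16INK4a (from Cdkn2a), p15INK4b (Cdkn2b), p18INK4c (Cdkn2c) and p19INK4d (Cdkn2d) bind CDK4 and CDK6. Cdkn2a also yields p19ARF from another first exon, a protein that acts through p53. In the developing mouse cochlea p27Kip1 appears as sensory progenitors leave the cell cycle, which is why it serves as a marker of the prosensory domain, and p19INK4d is known to help hair cells stay out of the cycle. SoxC factors such as Sox4 bind DNA through an HMG box.

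The peak lists gave no read totals, and the labels state only a minimum paired-end read number for the Sox4 libraries. Each peak carried a fold over its local background and a p-value, and together these fix a whole-number read pile-up and the local background of the peak. This solution matched the deposited -log10 p to within 0.001 for 99.5% to 100% of the peaks of each list. The median background was 13.7 and 8.88 reads in both DKO lists, 3.38, 3.17 and 2.86 reads in the 3 wildtype lists and 0.941, 2.57 and 3.89 reads in Sox4 replicates 1 to 3, so the DKO libraries had a higher background signal than the wildtype libraries. Open regions within 1 kb of a gene end were found for 7 of 8 epithelial markers in both DKO libraries against 7, 7 and 6 of them in wildtype, and for none of 5 blood and endothelial markers in any library. The epithelial genes were not all the same, since Krt18 was counted in both DKO libraries only and Gata3 in all 3 wildtype libraries only. They were also found for 2 of 4 spiral ganglion neuron markers in both DKO libraries and 3, 3 and 2 in wildtype, and for 2 of 3 mesenchymal markers in both DKO libraries and 2, 2 and 3 in wildtype, and the part of these other cell types in the results was not tested. Peaks lay on the bodies of Sox4 and Sox11 in every ATAC library, with best ranks of 6566 and 3681 on Sox4 in DKO and 5543, 5258 and 5686 in wildtype, which checks nothing about a deletion, since the labels do not give the deleted part. An open region in such tissue does not tell more open cells apart from more opening per cell.

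Sox4 peaks were most numerous beside Cdkn1b in every replicate. Within 100 kb of Cdkn1b (chr6:134920401-134925525) lay 28, 22 and 17 Sox4 peaks in replicates 1 to 3, against 8 to 18, 0 to 11 and 1 to 9 beside the other 6 genes. The median over all coding genes was 15, 7 and 4. Fewer peaks than at Cdkn1b were found at 94.0%, 98.5% and 99.4% of coding genes in replicates 1 to 3. The strongest peak there ranked 209, 57 and 64 by -log10 p in its list, against best ranks of 6719, 932 and 254 among the other inhibitors. At the 100 kb limit the last peaks counted lay 91498, 90466 and 85977 bp from Cdkn1b with folds of 4.11, 2.80 and 2.40, and the first peaks beyond it lay 100344, 100459 and 106089 bp away with folds of 4.12, 3.92 and 2.86.

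**Figure D1:**
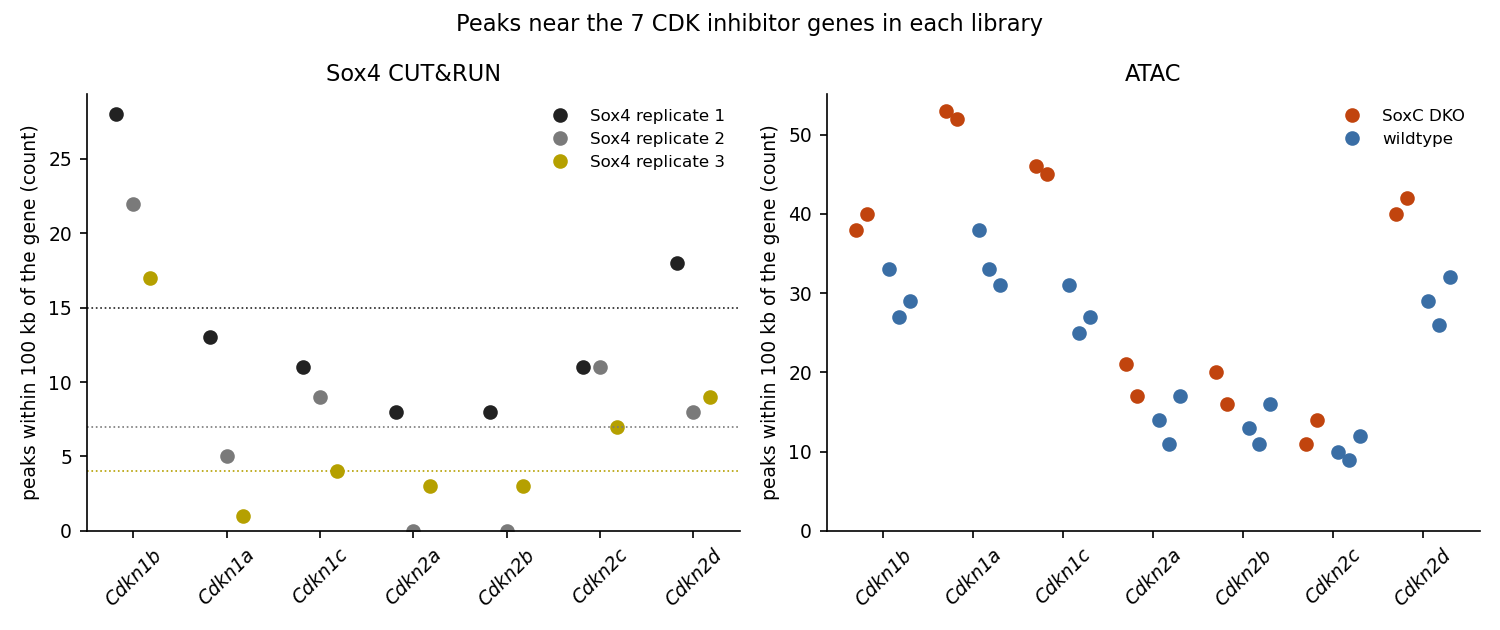
Number of peaks within 100 kb of each CDK inhibitor gene, with 1 point per library, for Sox4 CUT&RUN on the left and ATAC (SoxC DKO left of wildtype) on the right. Dotted lines are the medians of 15, 7 and 4 Sox4 peaks over all coding genes, and Cdkn1b stands above the other genes in each Sox4 replicate while its ATAC counts of 27 to 40 do not exceed all others in any library.

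Repeated sites were then counted, a site being a place where windows reaching 250 bp to each side of the summits of the 20000 strongest peaks overlap in at least 2 of 3 replicates. Cdkn1b had 6 such sites, Cdkn2d had 2, and none lay near the other 5 genes. Over the genome there were 1706 sites, 382 of them in all 3 replicates, and 24% of coding genes had at least 1 within 100 kb. As many sites as at Cdkn1b, or more, were found at 14 genes (0.0677%), Cdkn1b among them. Of these, Apold1, Crebl2 and Gpr19 are neighbours of Cdkn1b that share its 6 sites, and Cwc22 on chromosome 2 had 9.

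The site beside Cdkn1b with the best ranks over all 3 replicates lay 21655 bp from the gene at chr6:134897810-134898746, over an end of Gpr19, which encodes an orphan receptor, and over the long noncoding RNA gene 2810454H06Rik. It ranked 536, 281 and 64 in replicates 1 to 3, with folds of 4.16, 3.38 and 3.57. The pile-up there was 29, 49 and 84 reads over local backgrounds of 6.21, 13.8 and 22.8 reads. A site 25742 bp on the other side of the gene, at chr6:134951267-134951966 inside the long noncoding RNA gene Lockd, was also found in all 3 replicates and ranked 6421, 57 and 3322. Its folds were 3.96, 5.00 and 2.43, so replicate 2 stood above the others.

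The site over the Cdkn1b promoter, at chr6:134920228-134920823, was found in replicates 1 and 3, at ranks 209 and 91 with folds of 4.98 and 3.54, and had no window in replicate 2. The other 3 sites were each found in 2 replicates. One lay inside Gpr19 at chr6:134887809-134888393, with ranks 11154 and 724 in replicates 1 and 3. Another lay 2695 bp beyond the gene at chr6:134928220-134928735, with ranks 17863 and 324 in replicates 2 and 3, and the last lay inside Lockd at chr6:134937595-134938324, with ranks 10629 and 3316 in replicates 1 and 3. Of the 6 sites, 5 overlapped open regions found among the 50000 strongest peaks of both DKO and all 3 wildtype libraries. The site at 134937595 overlapped an open region in none of these libraries. The share of all 1706 repeated sites that overlap such open regions is not given here.

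**Figure D2:**
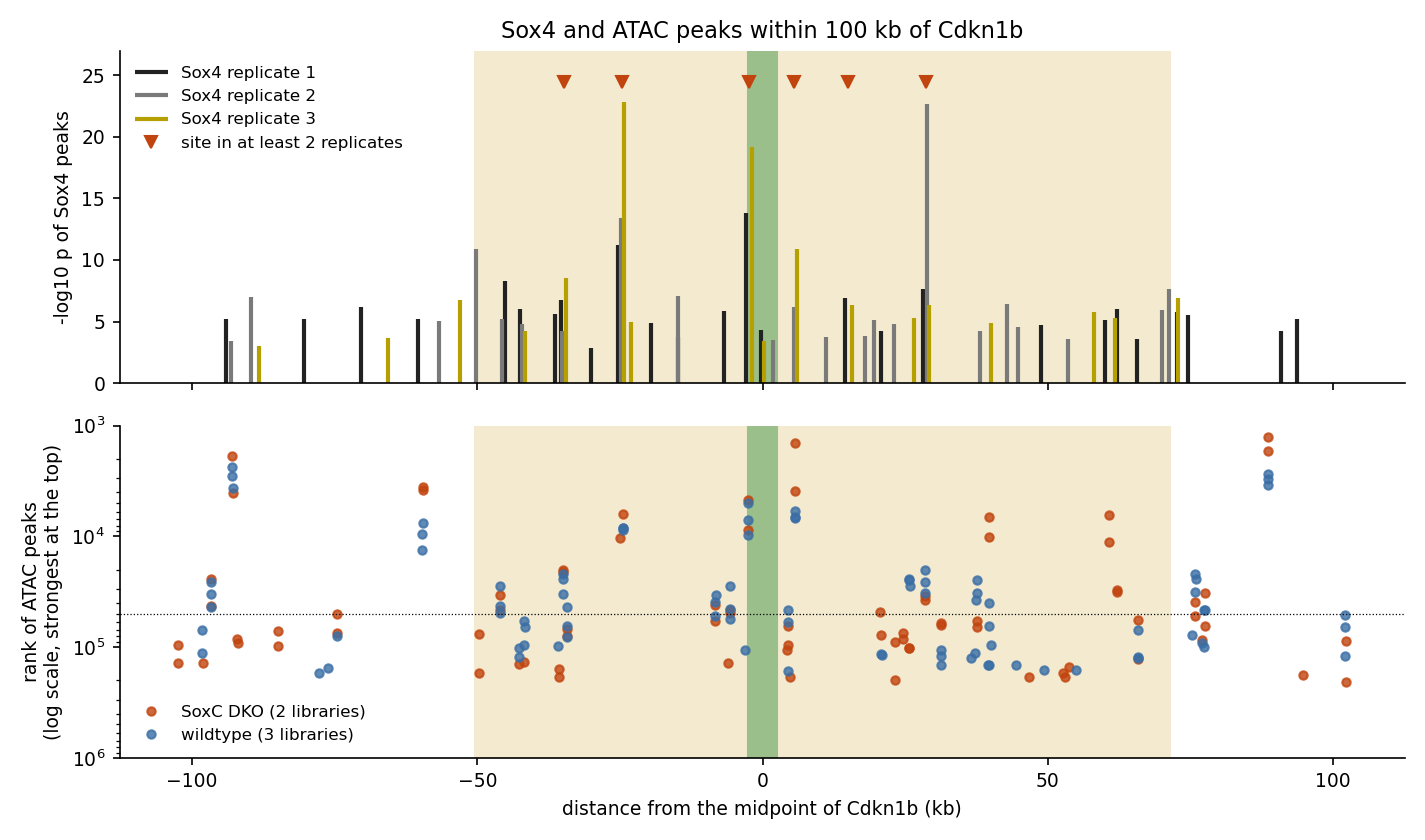
Peaks within 100 kb of Cdkn1b by distance from the gene's midpoint in kb, with the -log10 p of each Sox4 peak above and the rank of each ATAC peak below (log scale, dotted line at 50000). Green marks the gene, triangles the 6 sites found in at least 2 Sox4 replicates, and shading the stretch of raised Sox4 background, which holds all 6 triangles.

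The Sox4 peaks of Cdkn1b stood on a local background that was several times that of the rest of the genome. Between chr6:134872496-134994326, a stretch of 121831 bp that runs from 47905 bp before the gene to 68801 bp after it, every Sox4 peak had a background at least 3 times the median of its library. The stretch was drawn after seeing the data, as the span of the peaks at or above that ratio. The median ratio was 4.58 (range 3.25 to 6.60, 20 peaks) in replicate 1, 3.87 (3.12 to 5.35, 19 peaks) in replicate 2 and 4.90 (3.56 to 5.86, 13 peaks) in replicate 3. In the rest of the 500 kb on each side the median ratio was 1.00 in each replicate, over 72, 26 and 17 peaks, and the highest was 2.17, 1.28 and 2.96. Near the edges the ratio was mixed: the last peak before the stretch had a ratio of 1.00, 1.28 and 2.96, and the first peak after it 2.17, 1.00 and 2.77, in replicates 1 to 3.

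Over the genome, 0.0309%, 0.0856% and 0.128% of the peaks of replicates 1 to 3 reached a ratio of 3, which is 49, 62 and 50 peaks, and 20, 19 and 13 of them lay at Cdkn1b. At the other 6 inhibitors the highest ratio of any Sox4 peak was 1.36, 1.21 and 1.03. Apart from Cdkn1b, 5 bins of 100 kb held such peaks in all 3 replicates, and those with the most lay at Cwc22 on chromosome 2 and in a bin of chromosome 9 with no coding gene, 235231 bp from Alkbh8. Of the 1706 repeated sites, 26 had a ratio of 3 or more in a replicate, among them all 6 sites of Cdkn1b. Sox4 peaks were also denser on the stretch, at 1.64, 1.56 and 1.07 per 10 kb against 0.815, 0.294 and 0.192 in the flanks.

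**Figure D3:**
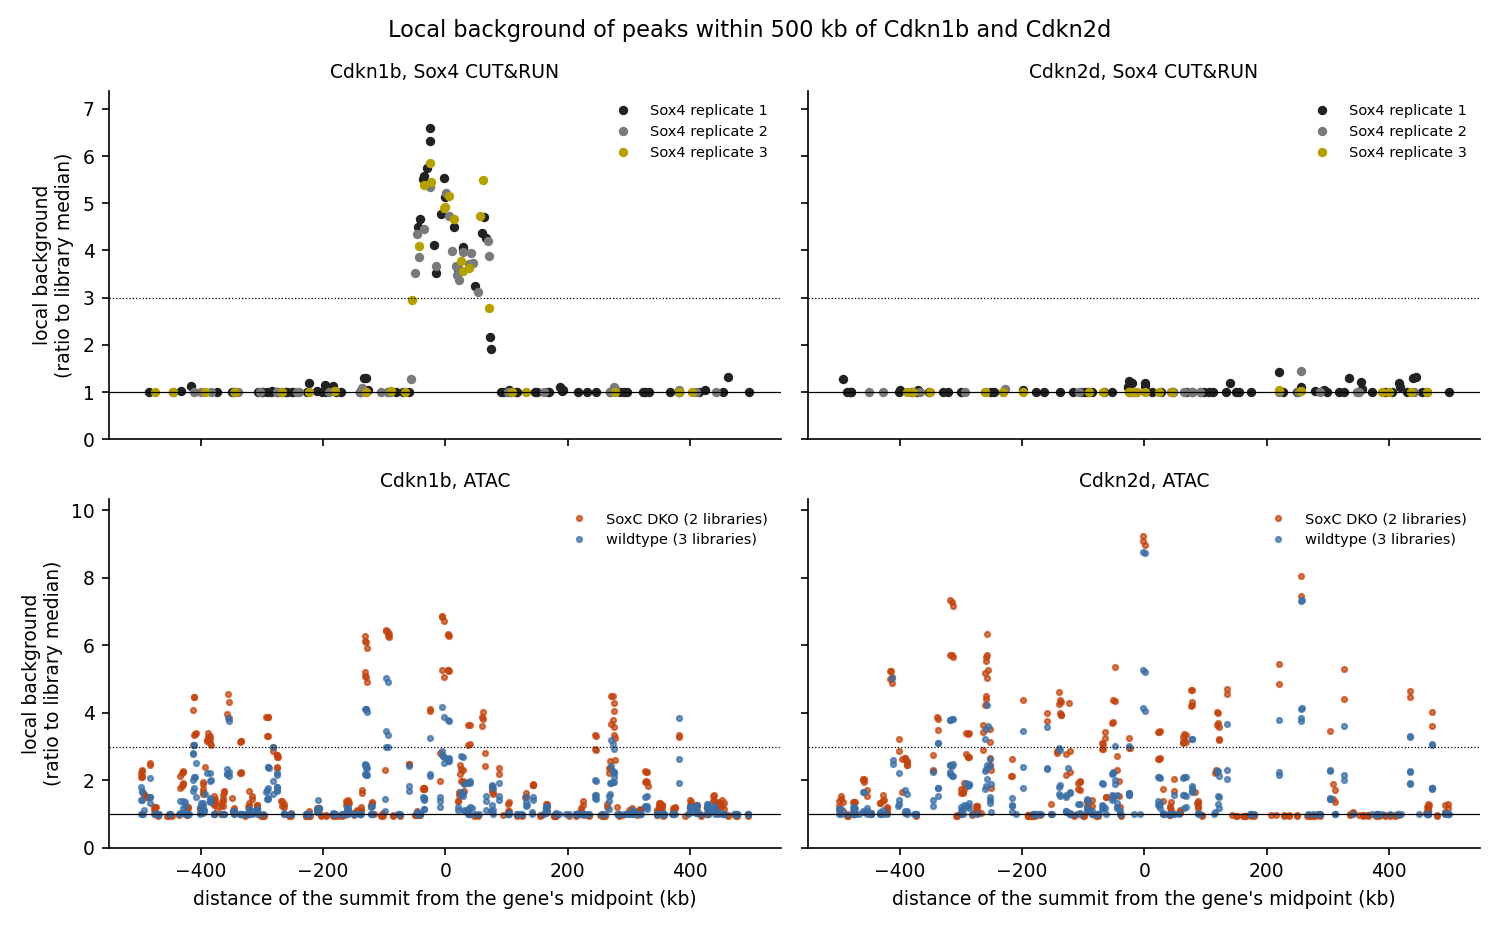
Local background of each peak within 500 kb of Cdkn1b (left) and Cdkn2d (right), as a ratio to the library median, for the 3 Sox4 replicates (top) and the 5 ATAC libraries (bottom, SoxC DKO listed before wildtype). Sox4 peaks at Cdkn1b lie between 3.12 and 6.60 over 1 stretch and near 1 away from its edges, while ATAC values return to about 1 within the same stretch and are raised at scattered places at both genes.

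The ATAC libraries also had a higher background on the stretch than around it, by a smaller factor. Their median ratio on it was 2.62 and 1.98 in the DKO libraries and 1.91, 1.43 and 1.15 in the wildtype libraries, against 1.26 and 1.26 in DKO and 1.14, 1.06 and 1.03 in wildtype in the rest of the 500 kb on each side. The stretch was drawn from the Sox4 peaks, so the Sox4 values on it are set in part by that choice and the ATAC values are not. The lowest ATAC ratio on it was 0.932 and 0.975 in DKO and 1.00, 1.00 and 1.00 in wildtype. These are the lowest ratios that the lists hold, since no recovered background lay below 12.7 and 8.66 reads in DKO. In the wildtype lists and Sox4 replicates 1 to 3 the lowest background matched the median to 3 digits. Ratios near 1, among them the Sox4 medians of 1.00 around the stretch, thus lie at a floor, and lower local values cannot be seen. ATAC ratios of 3 or more were reached by 10.7% and 8.23% of all DKO peaks and 7.17%, 2.54% and 2.06% of all wildtype peaks, so a raised value is common in ATAC. Over the 100 kb around the gene, Cdkn1b had median ATAC ratios of 2.32 and 1.90 in DKO and 1.86, 1.42 and 1.15 in wildtype, and Cdkn1a had 2.98 and 1.97 in DKO and 1.45, 1.10 and 1.00 in wildtype. Whether the p27kip1-GFP mice of the Sox4 libraries carried more copies of this stretch than the mice of the ATAC libraries was not tested. The Sox4 signal was not set against a control antibody here.

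At a given -log10 p a peak on a higher background has a lower fold, so the folds of the Cdkn1b peaks show the raised background on another scale and are no separate result. Sox4 peaks of ranks 100 to 299 in replicate 1 had a median fold of 7.76, with the middle 95% between 7.03 and 8.94, and the promoter peak of Cdkn1b at rank 209 had 4.98. In replicate 3, peaks of ranks 1 to 99 had a median fold of 7.12, with 3.81 at the lower end of the middle 95%, and the Cdkn1b peaks at ranks 64 and 91 had 3.57 and 3.54. Among the 2, 3 and 4 peaks of the stretch within the first 1000 ranks, at most 0%, 1.91% and 1.83% of the peaks of nearest rank had a lower fold. When peaks were ordered by fold, Cdkn1b had 1 site, the one over its promoter at chr6:134920228-134920823, and Cdkn2d had the same 2 sites as before.

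**Figure D4:**
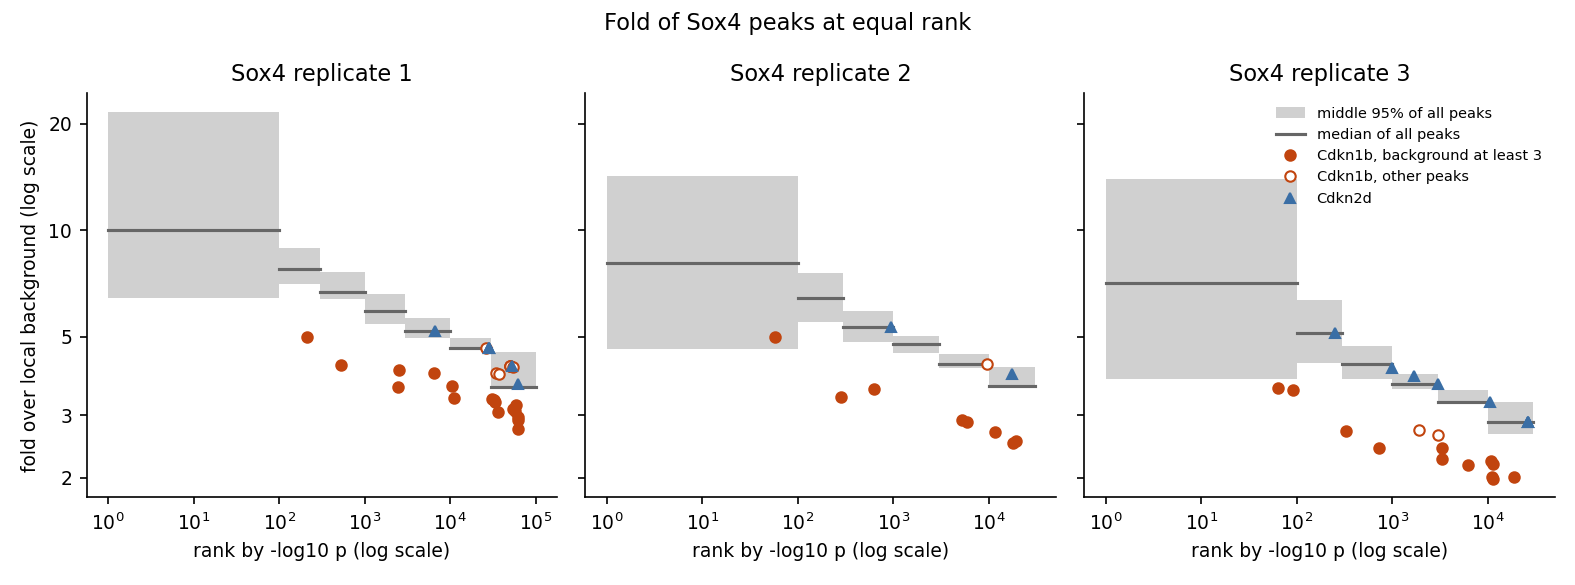
Fold over local background against rank by -log10 p (both log scales) in the 3 Sox4 replicates, with grey bands for the middle 95% and lines for the median of all peaks in each range of ranks. Cdkn1b peaks with a background ratio of at least 3 (filled circles) lie below the bands, save the strongest peak of replicate 2 at a fold of 5.00, and Cdkn2d peaks (triangles) lie within them.

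Beyond the stretch, Cdkn1b had 8, 3 and 4 Sox4 peaks within 100 kb and no repeated site. The stretch was chosen after seeing the data, and 83294 bp of the window lie outside it. Per 100 kb of that remainder Cdkn1b had 9.6, 3.6 and 4.8 peaks in replicates 1 to 3, against highest values of 8.87, 5.34 and 4.43 per 100 kb among the other inhibitors, so it was above them in replicates 1 and 3 and not in replicate 2. This rests on few peaks, some of them at the edges of the stretch with a raised background. In replicate 3 the nearest peak on each side had a ratio of 2.96 and 2.77, and both belong to its 4 peaks. In replicate 1 the first peak after the stretch, at a ratio of 2.17, is among its 8. The number of sites also rested on single libraries, with 3, 5 and 2 sites at Cdkn1b without replicate 1, 2 and 3.

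Cdkn2d (chr9:21288459-21291421) was the other inhibitor with repeated Sox4 sites, at background ratios of 1.00 to 1.19. The site over its promoter, chr9:21291195-21291703, ranked 6719 and 254 in replicates 1 and 3, with folds of 5.18 and 5.11 and pile-ups of 10 and 24 reads. The other, at chr9:21264834-21265392 inside Atg4d, which encodes an autophagy protease, ranked 932 and 986 in replicates 2 and 3, with folds of 5.32 and 4.09. Both overlapped open regions of both DKO and all 3 wildtype libraries, and the share of all repeated sites that do so is not given here. Without Sox4 replicate 1, 2 and 3 the gene had 1, 1 and 0 sites, and 1201 coding genes (5.81%) had as many sites or more.

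The promoters of Cdkn1b and Cdkn2d are shown because a Sox4 peak of 2 replicates overlapped each of them. The inner promoter of Cdkn2a, on which p16INK4a depends, is shown because a weaker peak of replicate 1 overlapped it. Each is the 300-base RefSeq promoter window of GRCm38.p6, from 250 bases before to 50 after a transcript start, written 5′ to 3′ on the gene's strand, with capitals for the bases under a Sox4 peak of any replicate.
Cdkn1b promoter, chr6:134920151-134920450, plus strand: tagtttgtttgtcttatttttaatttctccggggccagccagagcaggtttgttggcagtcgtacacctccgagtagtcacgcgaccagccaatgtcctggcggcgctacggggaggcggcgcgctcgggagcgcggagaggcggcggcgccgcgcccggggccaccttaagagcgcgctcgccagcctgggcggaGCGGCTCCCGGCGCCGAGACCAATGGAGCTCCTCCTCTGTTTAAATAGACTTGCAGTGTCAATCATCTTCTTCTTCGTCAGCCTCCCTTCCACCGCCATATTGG
Cdkn2d promoter, chr9:21291160-21291459, minus strand: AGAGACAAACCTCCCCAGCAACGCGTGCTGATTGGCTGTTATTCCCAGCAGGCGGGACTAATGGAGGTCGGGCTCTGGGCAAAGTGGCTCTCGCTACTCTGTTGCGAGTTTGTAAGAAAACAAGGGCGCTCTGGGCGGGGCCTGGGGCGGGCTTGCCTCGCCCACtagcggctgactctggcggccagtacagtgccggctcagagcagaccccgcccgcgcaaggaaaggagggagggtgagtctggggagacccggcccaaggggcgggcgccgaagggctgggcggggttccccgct
Cdkn2a inner promoter, chr4:89282143-89282442, minus strand: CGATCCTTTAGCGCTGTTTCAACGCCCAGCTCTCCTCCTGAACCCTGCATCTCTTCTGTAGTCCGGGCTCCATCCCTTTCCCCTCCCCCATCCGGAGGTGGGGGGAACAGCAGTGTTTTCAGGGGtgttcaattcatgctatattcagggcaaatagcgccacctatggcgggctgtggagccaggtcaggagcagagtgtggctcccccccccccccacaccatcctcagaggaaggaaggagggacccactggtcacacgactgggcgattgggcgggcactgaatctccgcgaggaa

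In the Cdkn1b window 104 of 300 bases lay under a Sox4 peak, all at the downstream end, and in the Cdkn2d window 165 bases, all at the upstream end. The Cdkn2a peak covered 125 upstream bases and ranked 61148 with a fold of 3.69. GC content was 62.0%, 66.3% and 60.3% in these windows. The HMG-box motifs ACAAAG and ACAATG, searched on both strands, occurred in none of the 9 promoter windows that matched 6 of the inhibitors. Of all 32851 promoter windows, 18.7% and 12.6% held them and 28.6% held either. The Sox4 summits at the Cdkn1b promoter, at 134920478 and 134920573 in replicates 1 and 3, lay beyond its window, which ends at 134920450. The search therefore did not cover the bases at these summits. Apart from the windows shown, none held a Sox4 peak.

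The remaining inhibitors had no repeated Sox4 site, and their Sox4 peaks had background ratios of at most 1.36. Cdkn1a (chr17:29090979-29100722) had 13, 5 and 1 peaks, the best at rank 30587, 10237 and 38643 and none on the gene body. Cdkn1c (chr7:143458339-143461059), an imprinted gene, had 11, 9 and 4 peaks with best ranks of 9283, 9696 and 17084, and none on its body. Cdkn2c (chr4:109660876-109666756) had 11, 11 and 7 peaks with best ranks of 48722, 11888 and 9355, the last 2 inside the neighbouring gene Faf1, and more peaks in replicates 2 and 3 than the median gene. Cdkn2a (chr4:89274473-89294619) and Cdkn2b (chr4:89306289-89311032) lie 11669 bp apart and had 8, 0 and 3 peaks each, of which 7, 0 and 3 were the same peaks. The best of these ranked 23863 in replicate 1, and 5005 in replicate 3 on the body of Cdkn2a.

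By the number of all peaks, open chromatin was rich at Cdkn1b, Cdkn1a, Cdkn1c and Cdkn2d and sparse at Cdkn2a, Cdkn2b and Cdkn2c. The median over all coding genes was 29 and 27 ATAC peaks in DKO and 22, 18 and 20 in wildtype. Cdkn1b had 38 and 40 ATAC peaks within 100 kb in DKO and 33, 27 and 29 in wildtype, and the other 6 genes had 11 to 53 and 14 to 52 in DKO and 10 to 38, 9 to 33 and 12 to 32 in wildtype. Among the 50000 strongest peaks of each library, Cdkn1b had 15 and 17 in DKO and 16, 16 and 16 in wildtype. Cdkn2d had 17 and 17 in DKO and 17, 17 and 18 in wildtype. Cdkn2a and Cdkn2b each had 4 and 5 in DKO and 5, 5 and 5 in wildtype, and Cdkn2c had 5 and 4 in DKO and 4, 4 and 2 in wildtype. Cdkn1a had 18 and 15 in DKO and 14, 6 and 5 in wildtype, and Cdkn1c had 11 and 9 in DKO and 8, 3 and 4 in wildtype. In wildtype replicates 2 and 3 Cdkn1c thus had fewer strong peaks than Cdkn2a and Cdkn2b. At Cdkn1a and Cdkn1c the DKO libraries lay above all wildtype libraries, with differences of 8.17 and 5.00 peaks (exact permutation p = 0.2 for each, two-sided, adjusted p = 0.7 over the 7 genes). The share of all coding genes whose groups separate in this way is not given here. With the 25000 strongest peaks the difference at Cdkn1c changed sign. The smallest p that 10 splits of 5 libraries allow is 0.1, so no difference could pass.

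Regions with a peak in all 5 ATAC libraries, 71631 of them, were ranked again within each library from 1, the strongest, so that lists of unequal length could be compared. The Cdkn2d promoter was the strongest, with ranks of 1375 and 857 in DKO and 1034, 918 and 1629 in wildtype. The Cdkn2c promoter ranked 8864 and 9303 in DKO and 6265, 3766 and 4192 in wildtype, and the Cdkn1b promoter 8707 and 4638 in DKO and 4948, 7088 and 9610 in wildtype. The Cdkn1c promoter ranked 26752 and 16120 in DKO and 20317, 18206 and 19591 in wildtype. Groups overlapped at the promoters of Cdkn1a, Cdkn1b, Cdkn1c and Cdkn2d but not at those of Cdkn2a (the outer one), Cdkn2b and Cdkn2c, where both DKO libraries were weaker. The share of all 71631 regions whose groups do not overlap is not given here, so this is a description and no result about these genes. The values of Cdkn1a, Cdkn2a and Cdkn2b follow with their other regions. At Cdkn2c the difference was 0.97 ± 0.38 in log2 rank (SE, adjusted p = 0.0842, limma), which did not pass the test.

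The same ranks were then compared between genotypes over all 71631 regions with limma, with positive differences in log2 rank for regions that were weaker in DKO. Over the genome 9.72% of regions were weaker and 11.1% stronger in DKO at an adjusted p of 0.05 or less. Of 82 regions near the inhibitors 2 were weaker and 12 stronger. The median difference was -0.09 over these 82 and 0.01 over all regions. Ordered by fold, 6 regions were weaker and 8 stronger, and with percentile ranks 4 and 10. The count fell to 6 without either DKO replicate and 8 without wildtype replicate 2. Genotype, depth and the calling of the lists cannot be told apart here.

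**Figure D5:**
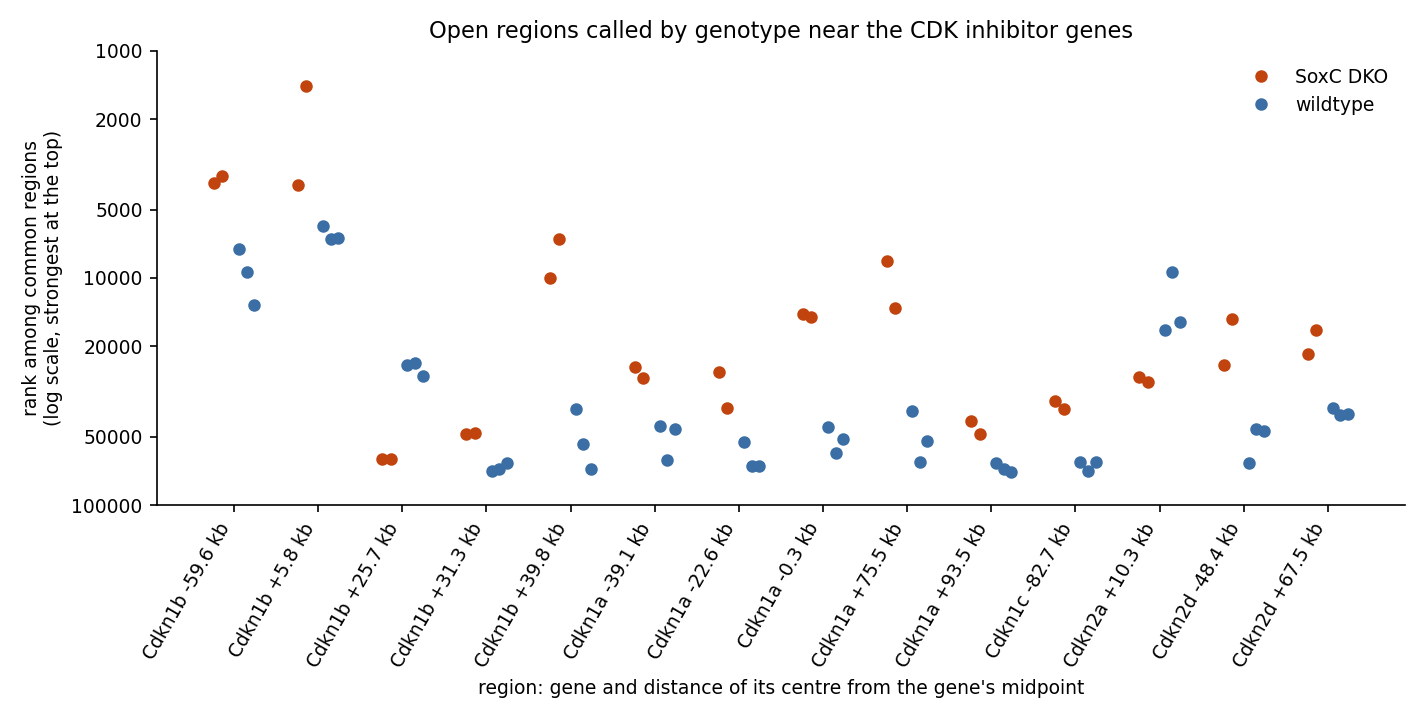
Rank among the common regions (log scale, strongest at the top) in each ATAC library for the 14 regions called by genotype near the inhibitors, SoxC DKO left of wildtype, labelled by gene and distance from the gene's midpoint. In 12 regions both DKO libraries rank above all wildtype libraries, and in 1 region each of Cdkn1b and Cdkn2a they rank below them.

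Of the 22 common regions at Cdkn1b, 1 was weaker and 4 were stronger in DKO. The largest difference among the common regions of the family was at chr6:134962212-134963296, between Lockd and Apold1 and 36687 bp from Cdkn1b. This region ranked 9972 and 6715 in DKO and 37753, 53998 and 69537 in wildtype. Its fold was 12.6 and 15.4 in DKO and 6.53, 3.93 and 2.59 in wildtype, so the groups did not overlap on either scale. The difference was -2.67 ± 0.35 in log2 rank (SE, adjusted p = 0.000689, limma), and it was called in all 10 alternatives run, with adjusted p up to 0.0132 (limma). A Sox4 peak of replicate 3, at rank 11410, overlapped it.

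The region weaker in DKO lay inside Lockd at chr6:134948389-134948973, 22864 bp from the gene. It ranked 62542 and 62389 in DKO and 24104, 23626 and 27017 in wildtype, a difference of 1.33 ± 0.29 (SE, adjusted p = 0.00666, limma). Lockd is transcribed just downstream of Cdkn1b, and its promoter region is known to loop to Cdkn1b in mouse erythroid cells. Without DKO replicate 1 or 2 the call was lost, with adjusted p up to 0.141 (limma). In Sox4 replicate 3 a peak of rank 10925 overlapped this region, and the other replicates had none there.

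The other 3 called regions of Cdkn1b were stronger in DKO and lost their calls under several alternatives. The region 2935 bp beyond the gene, chr6:134928460-134928976, which overlaps a Sox4 site, ranked 3881 and 1425 in DKO and 5912, 6767 and 6676 in wildtype (difference -1.45, adjusted p = 0.0365, limma). Ordered by fold its difference was 0.53, in the opposite direction, and adjusted p reached 0.471 (limma) over the alternatives, with the call lost without DKO replicate 2 or any wildtype replicate. A region inside Crebl2, chr6:134863079-134863639, ranked 3808 and 3571 in DKO and 7435, 9380 and 13095 in wildtype (-1.40, adjusted p = 0.0203, limma), and the call was lost by fold and without DKO replicate 1 or 2 or wildtype replicate 2 or 3. A weak region at chr6:134953927-134954571 ranked 48801 and 48079 in DKO and 70885, 69252 and 64985 in wildtype (-0.50, adjusted p = 0.0188, limma), and was lost without DKO replicate 1 or 2 or wildtype replicate 2.

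Other strong open regions of Cdkn1b were not called. A region 85790 bp away at chr6:135011315-135011827 ranked 1691 and 1269 in DKO and 3381, 3030 and 2716 in wildtype, without overlap (-1.05, adjusted p = 0.111, limma). A region 90090 bp to the other side at chr6:134829798-134830311 ranked 4017 and 1891 in DKO and 3606, 2820 and 2366 in wildtype, with overlap. The open region at the Sox4 site by Gpr19 and 2810454H06Rik, starting at 134897714, ranked 10293 and 6233 in DKO and 8343, 8595 and 8340 in wildtype, with overlap (difference -0.07, adjusted p = 0.905, limma).

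Cdkn1a had 5 of the 12 regions that were stronger in DKO, of 16 common regions, and none that was weaker. A region inside the gene at chr17:29095298-29095827 ranked 14353 and 14812 in DKO and 45090, 59078 and 51027 in wildtype, a difference of -1.82 ± 0.31 (SE, adjusted p = 0.00206, limma). A region inside Cpne5 at chr17:29171058-29171600, 70336 bp away, ranked 8454 and 13608 in DKO and 38453, 64514 and 52293 in wildtype, a difference of -2.24 ± 0.35 (SE, adjusted p = 0.00141, limma). Both were called in all 10 alternatives, with adjusted p up to 0.0361 and 0.0222 (limma). Cdkn1a is a main target gene of p53.

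The region at chr17:29072503-29074001 lies in Trp53cor1, the gene of lincRNA-p21, and ranked 26053 and 37413 in DKO and 52778, 67201 and 67451 in wildtype (-0.99, adjusted p = 0.0117, limma). Regions at chr17:29056140-29057271 and chr17:29188930-29189808 had differences of -0.96 and -0.60 (adjusted p = 0.0289 and 0.0116, limma). These 3 were lost without DKO replicate 1, the first 2 also without wildtype replicate 2, and the region at 29056140 also without DKO replicate 2, by fold and by percentile. The strong region over the second Cdkn1a promoter, chr17:29093450-29093972, ranked 15973 and 16416 in DKO and 11785, 16253 and 24860 in wildtype, so there the groups overlapped.

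Cdkn1c had 1 called region of 14, inside Kcnq1 at chr7:143376670-143377291, with ranks of 34799 and 37815 in DKO and 64293, 70428 and 64760 in wildtype (difference -0.87 ± 0.18, SE, adjusted p = 0.00537, limma). It was called in all 9 alternatives that gave a value. The strongest open region of the family, chr7:143548950-143549459, lay 87891 bp from Cdkn1c and ranked 546 and 424 in DKO and 1579, 1286 and 1193 in wildtype, without overlap and without passing the test (-1.48, adjusted p = 0.0822, limma). Ordered by fold its difference was 2.06, in the opposite direction. Cdkn2d had 2 called regions of 20, both stronger in DKO, at chr9:21241268-21241812 near S1pr5 (-1.45, adjusted p = 0.00782, limma) and chr9:21357211-21357758 near Slc44a2 (-1.03, adjusted p = 0.0304, limma). The first ranked 24094 and 15191 in DKO and 65291, 46341 and 47288 in wildtype, and the second 21597 and 16991 in DKO and 37524, 40047 and 39699 in wildtype. The first was lost without DKO replicate 2 and by fold, and the second without DKO replicate 1 or 2 or wildtype replicate 2, by fold and by percentile.

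At the locus of Cdkn2a and Cdkn2b the 1 called region was weaker in DKO. The outer promoter of Cdkn2a, from which p19ARF is transcribed, lay in the region chr4:89294560-89295113, which ranked 27165 and 28617 in DKO and 16983, 9439 and 15678 in wildtype, a difference of 1.04 ± 0.35 (SE, adjusted p = 0.0486, limma). This call was lost by fold and without DKO replicate 1 or 2 or wildtype replicate 2, with adjusted p up to 0.260 (limma). All 6 common regions shared by Cdkn2a and Cdkn2b had positive differences, from 0.14 to 1.04, of which 1 was called. They lie at 1 locus, and the share of positive differences over all 71631 regions is not given here. This count is therefore a description and no result about the locus. At the Cdkn2b promoter the ranks were 20217 and 17052 in DKO and 14175, 12956 and 8780 in wildtype (0.66, adjusted p = 0.185, limma). Cdkn2c had 4 common regions and none called. The strongest, at chr4:109676151-109676852, had ranks of 2053 and 2377 in DKO and 1025, 872 and 1749 in wildtype (0.93, adjusted p = 0.220, limma). Of 10 alternatives, 1 called this region, the order by fold. The Cdkn2c promoter region was called in 3 of 10, by fold, by percentile and without wildtype replicate 1.

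Presence among the 50000 strongest peaks gave a second view. Of 76109 regions over the genome, 6.56% were in all 3 wildtype and no DKO library (wildtype-only) and 7.96% in both DKO and no wildtype library (knockout-only). Of 86 regions near the inhibitors 8 were knockout-only, 3 wildtype-only and 36 shared by all 5 libraries. Cdkn1c had 3 knockout-only regions, Cdkn1a 2 and Cdkn2d 1, and Cdkn2d also had 1 wildtype-only region, while Cdkn2a, Cdkn2b and Cdkn2c had neither. The total of 11 became 32 with the 100000 strongest peaks, 17 without DKO replicate 2 and 24 without wildtype replicate 1. The number of regions under these settings is not given here.

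Cdkn1b had 2 knockout-only and 2 wildtype-only regions. Both knockout-only regions lay inside Apold1, which encodes an endothelial early-response protein. The region chr6:134983435-134983942 ranked 11226 and 6415 in the full DKO lists with folds of 11.7 and 14.2, while none of the 3 wildtype lists held a peak there. The region chr6:134984784-134985298 ranked 32059 and 30542 in DKO and again had no wildtype peak. A Sox4 peak of replicate 1 overlapped each, at ranks 53916 and 32414.

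The wildtype-only regions of Cdkn1b were the Lockd region described above and chr6:134960060-134960852. The second ranked 66313 and 58535 in the full DKO lists and 32459, 24871 and 37321 in the wildtype lists, with folds of 4.12 and 4.24 in DKO and 7.82, 8.15 and 5.69 in wildtype. Its -log10 p was 62.5 and 37.9 in DKO and 34.8, 24.9 and 12.2 in wildtype, so by p-value the order was the opposite of that by rank and fold. Both genotypes thus had a peak there. A Sox4 peak of replicate 2, at rank 50985, overlapped it.

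At the other inhibitors most of these regions also had weaker peaks in the other genotype. The knockout-only regions of Cdkn1a lay in Trp53cor1, and the one at chr17:29073367-29073872 ranked 27592 and 42138 in DKO and 61788, 105241 and 124509 in wildtype. At Cdkn1c, chr7:143480485-143480989 inside Slc22a18, an imprinted transporter gene, ranked 32948 and 36634 in DKO and had 1 wildtype peak, at rank 81097 in replicate 1. The Cdkn2d region called wildtype-only, chr9:21237491-21238010 inside Keap1, had a peak of rank 60334 in DKO replicate 2 and lay under a long peak of rank 17107 in DKO replicate 1 whose summit was elsewhere, against ranks of 31807, 45992 and 29670 in wildtype. The genotypes therefore did not differ there in whether a peak was present.

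By the number of peaks in the 8 Sox4 and ATAC libraries, the genes most like Cdkn1b were Faf1, Gbf1, Myo1d, Fbn1 and Cog5, with distances of 0.46 to 0.79 in log2(peaks + 1) over the 3 Sox4 and 5 ATAC libraries. Faf1, the neighbour of Cdkn2c, had 27, 23 and 14 Sox4 peaks in replicates 1 to 3. The 5 genes had 0 or 1 repeated site each, against 6 at Cdkn1b, and median Sox4 background ratios between 1.00 and 1.04. All 5 are much longer than Cdkn1b, which spans 5125 bp, while Faf1 spans chr4:109676627-109963960. Their windows were therefore wider, and they are like Cdkn1b in the number of peaks and not in peaks per length.

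Among 25 partners and regulators of the inhibitors, cyclins, kinases, retinoblastoma and E2F genes, p53 and p27Kip1 regulators, 11 had a repeated Sox4 site, against 24% of all coding genes, and none had more than 3. Cdk2, a kinase that p27Kip1 inhibits, had 3 sites, Trp53 had 2, and Ccna2 and Ccnb1, the genes of cyclins A2 and B1, had 1 each. The median of this list was 15, 7 and 5 Sox4 peaks in replicates 1 to 3, against 28, 22 and 17 at Cdkn1b, and its most were 28, 14 and 11. The highest median background ratio of the list was 2.31, at Ccne1 in replicate 3, a gene named here after its values were seen. Of 316 common open regions near these 25 genes, 21 (6.65%) were weaker and 40 (12.7%) stronger in DKO by limma at the adjusted p of 0.05, against 9.72% and 11.1% of all regions, with calls at 12 and 18 genes and a median difference of -0.08. Rbl2, a retinoblastoma family gene, and Skp2, the gene of a ubiquitin ligase subunit that marks p27Kip1 for degradation, had no called region and are named for that count. The list was chosen with results of these data known.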

How the data were processed

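Peak lists of 5 ATAC-seq libraries (2 SoxC DKO, 3 wildtype) and 3 Sox4 CUT&RUN replicates were analysed. Each list was called by the authors on 1 library, with MACS2, STAR and deepTools among the tools listed, UMI-tools for the Sox4 libraries, and mm10 and GRCm38 as builds, per the submitters' processing notes. The caller's settings are not given in the sources used here, apart from a p threshold and a peak cap that the names of the DKO lists state. The deposited lists give a fold enrichment over local background, a ratio made by the authors' caller within each library. They also give a -log10 p, as deposited, and the offset of the summit. Read totals are not known for ATAC, so depth is described only by the recovered background. The wildtype lists held no peaks on sex chromosomes, so all lists were limited to autosomes. The single-cell matrices were not used here.

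Overlapping peaks within a list were merged, and peaks were ranked by -log10 p. Ties were ordered by fold and then by chromosome and position. In Sox4 replicate 1 the peaks ranked 23863 to 28125 shared a -log10 p of 6.16 and a fold of 4.64. Ranks within such ties depend on position only, and the limit of 20000 peaks may fall among them. The integer pile-up and the local background of each peak were solved from its fold and -log10 p under a Poisson model, to within 0.001. Windows reached 250 bp to each side of a summit. Sox4 sites used the 20000 strongest peaks and presence by genotype the 50000 strongest ATAC peaks. Regions common to the 5 ATAC libraries were ranked anew, and log2 ranks were compared with limma 3.58.1 in R 4.3.3, with Benjamini-Hochberg adjustment over all 71631 regions and a threshold of 0.05. Other steps used Python 3.11.15 with pandas 2.3.3, numpy 2.4.6, scipy 1.17.1 and matplotlib 3.10.9. On simulated ranks, limma recovered 94% of 100 regions shifted by -3 and 99% of 100 shifted by -5 on the log2 scale, with 2 false calls among 71631 regions. The shifts were larger than any difference of the common regions near the inhibitors, which ran from -2.67 to 1.33. They were given only to regions in the weaker part of the ranks, with noise drawn independently for each library. The simulation therefore does not show how reliable the calls reported here are. Open peak counts were compared with an exact permutation test.

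The regions named are, for each inhibitor, those on the gene or its ends, the repeated Sox4 sites, the 3 with the best mean rank and those called or present by genotype, and exceptions are stated. Genes like Cdkn1b were the 5 nearest in Euclidean distance, each over 1 Mb from Cdkn1b and from each other. The members, the gene lists and the rules were chosen with earlier results of these data known. The alternatives tried were the order by fold, percentile ranks, full peak extents, other numbers of strongest peaks, other distance limits, the stronger part of the regions, the replicate block and leaving out each replicate.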

Additional observations from a re-analysis of the deposited data

Results flagged for a closer look

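A further peak list of Sox4 replicate 1, in another format and not used in the comparisons above, also held raised local background at Cdkn1b. Within 100 kb of the gene, 39 of its 61 peaks had a background at least 3 times the median of that list, against 0.0391% of its 370526 peaks over the genome. On the stretch chr6:134872496-134994326 the median ratio of this list was 4.45, and in the rest of the 500 kb on each side it was 1.00. The list was made from the same replicate, so it is no independent measurement, and the cause was not tested.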

How the results depend on the processing

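Of 629 values under alternatives, 474 kept direction and side of the threshold or stayed within their allowed change, 33 lost a call, 13 gained one, 81 moved and 28 changed sign. Of the sign changes, 24 were single regions and 4 were differences in open peaks, and the cause was not tested. At Cdkn1b the difference in open peaks was 0 in the comparison reported. Its alternatives could not change sign, so their place among the 474 shows nothing about stability.

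The 6 repeated Sox4 sites of Cdkn1b became 3 with the 10000 strongest peaks, 10 with all deposited peaks, 1 by fold, 2 within 10 kb and 0 without the raised stretch, and 2 to 5 without 1 replicate. For all inhibitors the 8 sites became 5, 16, 3, 3 and 2 under those settings, and 2 to 6 without 1 replicate. The mean of 22.3 Sox4 peaks at Cdkn1b became 10.0 with the 20000 strongest peaks, 3.0 within 10 kb, 14.7 within 50 kb and 5.0 without the stretch, an alternative added after seeing the data.

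The 14 regions called near the inhibitors became 3 within 10 kb, 9 within 50 kb and 6 to 18 without 1 replicate, and the 14886 over the genome became 3256 to 17558. The common regions near the inhibitors fell as well, from 82 to 23 within 10 kb and 56 within 50 kb. The counts at these distances alone therefore do not show a change in share. With 1 DKO library left, its spread was assumed to be that of the wildtype libraries. The 11 regions present by genotype, of 86, became 32 with the 100000 strongest peaks and 11 to 24 without 1 replicate. They became 1 within 10 kb and 7 within 50 kb. The number of regions under these settings is not given here. With the replicate block the calls were 22 near the inhibitors and 20952 over the genome. Replicates 1 and 2 of both genotypes share only a number, with correlations of their deviations of 0.109 and 0.085, so they are not treated as paired.

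Changes of sign touched regions with no call in the comparison reported, save 134928460 on chromosome 6. By fold the differences in log2 rank were 0.53 there, 1.54 at 134829798 and 1.04 at 134920088 on chromosome 6, 1.55 at 29032311 and 0.79 at 29093450 on chromosome 17, 2.06 at 143548950 on chromosome 7, and 0.46 at 21220424, 0.14 at 21264491 and 1.57 at 21291018 on chromosome 9. With the replicate block they were 0.10 at 134920088, 0.23 at 29093450, 0.16 at 21291018 and 0.19 at 109656912 on chromosome 4, and percentile ranks gave 0.033 at 134829798. Without 1 replicate the ranges were -0.31 to 0.23 at 29093450, -0.61 to 0.48 at 134829798, -0.59 to 0.32 at 134920088, -0.27 to 0.47 at 143460820, -0.15 to 0.26 at 109656912 and -0.44 to 0.25 at 21291018. The difference in open peaks was -0.5 at Cdkn1c with the 25000 strongest peaks, -0.17 at Cdkn2c within 10 kb, and 2.83 and 4.33 at Cdkn2d with the 25000 and 100000 strongest. The median Sox4 background of 0.941 to 3.89 reads limits how well single Sox4 peaks are measured.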
